A study of Caenorhabditis elegans with 8 samples.

Results

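The meiotic chromosome axis and synapsis genes described here are him-3, htp-1, htp-2, htp-3, syp-1, syp-2, syp-3, syp-4, rec-8 and him-8. These 10 genes were chosen by name for their role in meiosis and looked up by symbol in 6 tables of transcript counts. The choice was made with earlier results of these data known, so their shares beside those of all transcripts are a description and not a test. Of the 10 genes, 9 were matched, each in all 6 tables, among 14396 transcripts listed in any table. The axis gene him-3 was not analysed here. RNA-seq had been run on total RNA of whole Caenorhabditis elegans at L4, the last larval stage, of the Bristol strain and raised at 22 °C. The worms were labelled damt-1 or wild type, and were exposed to 1.92 µM antimycin A, which blocks complex III of the mitochondrial respiratory chain, or were untreated. There were 8 groups: libraries labelled damt-1 with antimycin A in P0, F1 and F2, damt-1 untreated, wild type with antimycin A in P0, F1 and F2, and wild type untreated. Each group had 2 libraries, 16 in all, and the untreated pair of a genotype was compared with all 3 of its treated groups. Whether earlier generations of the F1 and F2 worms had been exposed is not stated, and 1 source has exposure from eggs and another from L1 larvae. The study asked how the transcriptome changes under mitochondrial stress in wild type and damt-1 worms.

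In meiotic prophase, each chromosome is organised along a proteinaceous axis on which cohesin holds the sister chromatids together. Homologous chromosomes find each other, and the synaptonemal complex then assembles between their axes and holds them in register while crossovers form. In C. elegans the axis is built by the HORMA domain proteins HTP-3, HIM-3, HTP-1 and HTP-2 on cohesin that contains REC-8, the SYP proteins form the central region of the complex, and HIM-8 binds the pairing centre of the X chromosome. These proteins act in the germ line, which at L4 is proliferating, entering meiosis and making sperm.

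Library totals ran from 3541390 to 4365451 counts, and levels are given as CPM, counts scaled to the library total with TMM factors. A gene is said to have risen or fallen where its adjusted p, from edgeR's quasi-likelihood test with Benjamini-Hochberg adjustment over all transcripts tested, was under 0.05. Nothing in the labels says that the libraries of a group came from separate cultures, so p-values reflect no more than the differences between libraries of a group, possibly technical ones. Between the untreated groups the damt-1 transcript differed by less than its spread between libraries, at 19.4 ± 3.44 CPM in libraries labelled damt-1 and 19.8 ± 0.247 CPM in wild type libraries (SD, n = 2 each), with a log2 difference of -0.029 ± 0.19 (SE, adjusted p = 0.925). With antimycin A it averaged 17.2 ± 1.08 CPM in damt-1 P0, 18.5 ± 3.61 in F1 and 22.9 ± 1.40 in F2, against 26.0 ± 3.15 CPM in wild type P0, 31.4 ± 5.56 in F1 and 30.2 ± 1.88 in F2 (SD, n = 2 each), and was lower in P0 and F1 (adjusted p = 0.0148 and 0.00086) and short of the threshold in F2 (adjusted p = 0.0624). The labels do not describe the mutation, so every direction between genotypes given here rests on the labels alone. In whole worms, fewer germ cells and less RNA per germ cell cannot be told apart. The germ line markers glh-1, gld-1 and glp-1 were counted in all 16 libraries, as were markers of intestine, epidermis, muscle, neurons and pharynx.

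Most of the 9 genes had moderate levels, and their order per length was much the same in both untreated groups. The axis gene htp-1 was the most abundant per kilobase of spliced transcript in untreated libraries, at 61.1 CPM per kilobase in libraries labelled damt-1 and 62.8 in wild type libraries. In the untreated wild type, syp-2 had 32.5 CPM per kilobase, htp-3 32.05, syp-4 29.2, htp-2 29.1, syp-3 28.8, him-8 19.7 and syp-1 16.6. The cohesin gene rec-8 was the least abundant, at 3.92 CPM per kilobase in untreated libraries labelled damt-1 and 4.58 in wild type untreated libraries. The annotation has 3 transcripts of rec-8 and 2 each of syp-3 and him-8, while 1 entry was matched for each gene. Whether reads of the other transcripts are included in these levels is not known. The place of syp-1 depended on the length used, because its spliced transcript of 3053 nt is much longer than its coding length of 1467 nt. Per coding kilobase it had 34.5 CPM in the untreated wild type, above htp-2 at 34.04, htp-3 at 33.9 and syp-4 at 32.9. The genes lie on 3 chromosomes: htp-3, syp-3 and syp-4 on I, htp-1, htp-2, rec-8 and him-8 on IV, and syp-1 and syp-2 on V. The paralogs htp-1 and htp-2 both have a coding length of 1056 nt and near-identical sequence, so the split of reads between them is uncertain. In the annotation syp-1 overlaps F13A7.14 on the same strand and syp-3 overlaps mrt-1 on the opposite strand. Reads from the stretch that syp-1 shares cannot be told apart by strand. For syp-3 it is not stated whether strand was used in counting. How much of each transcript lies in such a stretch was not measured.

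**Figure D1:**
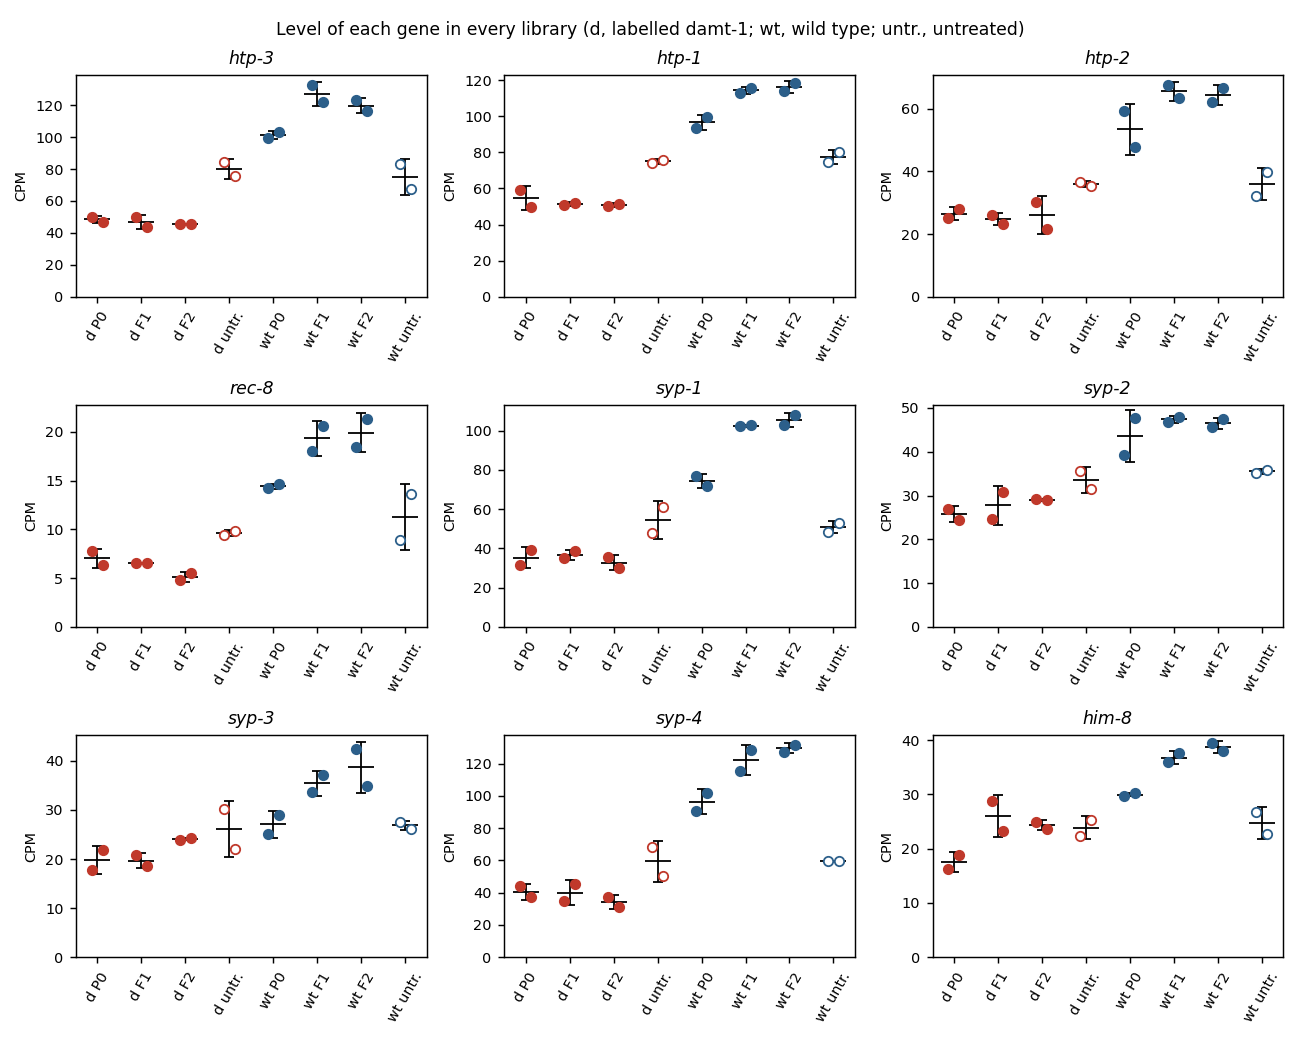
Level in CPM of each of the 9 genes in every library: points are libraries, the horizontal mark is the group mean and the bar 1 SD (n = 2), with libraries labelled damt-1 in red, wild type in blue and untreated groups as open points. In htp-3, htp-1, htp-2, syp-1, syp-2, syp-4 and rec-8 the treated libraries labelled damt-1 lie below both untreated groups and the treated wild type libraries above them.

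With antimycin A, the calls among these genes were falls in libraries labelled damt-1 and rises in the wild type. In treated libraries labelled damt-1, 4 of the 9 genes fell in P0, 5 in F1 and 5 in F2, and none rose. Of these falls, DESeq2 did not call htp-2 in F1 or rec-8 in F2, and the authors' own results called fewer in each group. Some of the falls were lost with a single library left out, as given gene by gene below. Over all transcripts tested, 5.68% fell and 8.41% rose in P0, 5.53% and 7.69% in F1, and 5.84% and 7.9% in F2, so falls were more frequent among these genes than among all transcripts. Because the genes were chosen with earlier results known, this contrast is a description, as is that for the wild type below. The median log2 difference of the 9 genes was -0.45 in P0, -0.55 in F1 and -0.57 in F2, where the median over all transcripts was -0.0052, -0.00078 and 0.0013. In treated wild type libraries, 5 of the 9 genes rose in P0 and all 9 rose in F1 and in F2, and none fell. DESeq2 did not call htp-1 in P0, syp-2 in F1 and F2 or syp-3 in F1. The authors' own results called fewer of the genes in each of these groups. Some of the rises were also lost with a single library left out, as given gene by gene below. Over all transcripts, 13% rose and 8.14% fell in wild type P0, 26.2% and 20.7% in F1, and 25.9% and 21% in F2, so rises were again more frequent among the 9 genes. The median log2 difference of the 9 genes was 0.34 in wild type P0, 0.77 in F1 and 0.68 in F2, where the median over all transcripts was 0.0055, 0.026 and 0.025.

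The libraries separated in the same way. Both treated libraries labelled damt-1 lay below both untreated ones for 9 genes in P0, 8 in F1 and 7 in F2, which 25.1%, 25.3% and 25.1% of all transcripts did. Both treated wild type libraries lay above both untreated ones for 8 genes in P0, 9 in F1 and 9 in F2, which 30.6%, 39.8% and 39.5% of all transcripts did. The exceptions were him-8 in damt-1 F1 and F2, and syp-3 in damt-1 F2 and wild type P0. The 9 genes summed to 272 to 278 CPM per library in P0, 277 to 283 in F1 and 262 to 281 in F2 of the libraries labelled damt-1, against 387 to 409 CPM in their untreated libraries. The wild type sum was 528 to 546 CPM in P0, 665 to 676 in F1 and 676 to 683 in F2, against 396 to 398 CPM in untreated libraries. The summed levels of treated and untreated libraries overlapped in neither genotype.

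**Figure D2:**
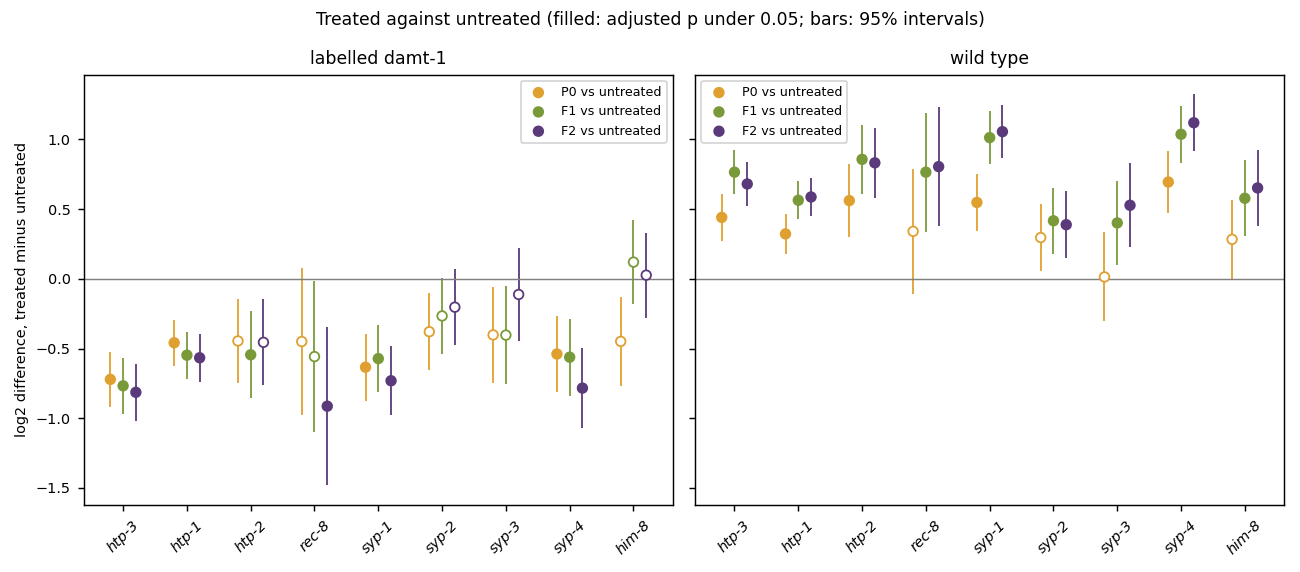
Log2 difference, treated minus untreated, of each gene in libraries labelled damt-1 (left) and in the wild type (right), with bars of 1.96 SE as approximate 95% intervals and filled points for an adjusted p under 0.05. Such bars can be narrower than the test implies: that of rec-8 in damt-1 F1 excludes 0 at an unadjusted edgeR p of 0.0553. All filled points lie below 0 on the left, down to -0.91 for rec-8 in F2, and above 0 on the right, up to 1.12 for syp-4 in F2.

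Among the axis genes, htp-3 fell in all 3 treated groups labelled damt-1 and rose in all 3 treated wild type groups. HTP-3 is the HORMA domain protein that recruits the other axis proteins and is needed for meiotic double strand breaks. It had 49.95 and 46.96 CPM in P0, 50.1 and 43.99 in F1 and 45.3 and 45.6 in F2 of libraries labelled damt-1, against 84.7 and 75.5 CPM in untreated libraries. Every treated library was below both untreated ones, and the 6 treated libraries lay close together. The log2 difference was -0.72 ± 0.10 in P0 (SE, adjusted p = 1.02e-05), -0.77 ± 0.10 in F1 and -0.81 ± 0.10 in F2 (adjusted p = 5.56e-06 and 2.76e-06), so that F2 was 1.76-fold lower. Wild type libraries had 99.6 and 103 CPM in P0, 132 and 122 in F1 and 123 and 116 in F2, against 82.9 and 67.2 CPM in untreated libraries. All 6 treated wild type libraries were above both untreated ones, although the untreated pair spread more widely than any treated pair. The log2 difference was 0.44 ± 0.085 in P0 (adjusted p = 0.00044), 0.77 ± 0.080 in F1 and 0.68 ± 0.082 in F2 (adjusted p = 3.11e-08 and 2.8e-07). These 6 calls held with each library left out in turn.

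The paralogs htp-1 and htp-2 moved with htp-3, with smaller falls in libraries labelled damt-1. HTP-1 acts in the check that couples homolog pairing to synapsis and in protecting sister cohesion, and HTP-2 is its near-identical partner. For htp-1 the libraries labelled damt-1 had 59.2 and 49.9 CPM in P0, 50.6 and 52.1 in F1 and 50.1 and 51.4 in F2, against 74.2 and 76.04 CPM in untreated libraries. Its wild type levels were 93.6 and 99.7 CPM in P0, 113 and 116 in F1 and 114 and 119 in F2, against 74.5 and 79.98 CPM in untreated libraries. No treated library overlapped the untreated ones of its genotype. The log2 differences in libraries labelled damt-1 were -0.46 ± 0.085 in P0, -0.55 ± 0.087 in F1 and -0.57 ± 0.087 in F2 (adjusted p = 0.000345, 5.37e-05 and 3.73e-05). The wild type differences were 0.32 ± 0.072 in P0, 0.56 ± 0.069 in F1 and 0.59 ± 0.069 in F2 (adjusted p = 0.00186, 3.56e-07 and 2.06e-07). The rise in wild type P0 was not called by DESeq2 (adjusted p = 0.0690), and these 6 calls held with each library left out.

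For htp-2 the libraries labelled damt-1 had 24.98 and 27.9 CPM in P0, 26.01 and 23.3 in F1 and 30.2 and 21.7 in F2, against 36.7 and 35.2 CPM in untreated libraries. The wild type had 59.2 and 47.7 CPM in P0, 67.6 and 63.4 in F1 and 62.1 and 66.5 in F2, against 32.3 and 39.6 CPM in untreated libraries. Treated and untreated libraries did not overlap in either genotype, and the pair in damt-1 F2 was the most spread of the treated pairs labelled damt-1. Of the falls, that in F1 passed the test (log2 -0.54 ± 0.16, adjusted p = 0.0220), while P0 at -0.45 ± 0.16 (adjusted p = 0.0590) and F2 at -0.46 ± 0.16 (adjusted p = 0.0565) did not. The call in F1 was lost with any of the 4 libraries left out (adjusted p = 0.0522 to 0.171) and with DESeq2 (adjusted p = 0.0650), while F2 passed without F2 replicate 1 (adjusted p = 0.0140) and, like P0, under some other scalings. On the wild type side htp-2 rose by 0.56 ± 0.13 in P0, 0.86 ± 0.13 in F1 and 0.83 ± 0.13 in F2 on the log2 scale (adjusted p = 0.00304, 5.6e-06 and 9.37e-06). The P0 rise was lost without untreated replicate 1 (adjusted p = 0.0696) or P0 replicate 1 (adjusted p = 0.0888).

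The cohesin gene rec-8 had few counts, and its calls against untreated libraries rested on single libraries. REC-8 is a meiotic kleisin, the subunit that closes the cohesin ring around sister chromatids. It had 7.74 and 6.37 CPM in P0, 6.57 and 6.55 in F1 and 4.79 and 5.49 in F2 of the libraries labelled damt-1, against 9.44 and 9.89 CPM in their untreated libraries. Its wild type levels were 14.2 and 14.6 CPM in P0, 18.1 and 20.6 in F1 and 18.5 and 21.3 in F2, against 8.92 and 13.7 CPM in untreated libraries. No treated library overlapped its untreated pair, but wild type untreated replicate 2 lay close to the P0 libraries. The log2 difference in libraries labelled damt-1 was -0.45 ± 0.27 in P0 and -0.56 ± 0.28 in F1 (adjusted p = 0.334 and 0.222), and in F2 rec-8 fell by 0.91 ± 0.29 (adjusted p = 0.0370). That call was lost with any of the 4 libraries left out (adjusted p = 0.0914 to 0.191), with DESeq2 (0.135) and in a fit of only the groups compared (0.0801). The wild type difference was 0.34 ± 0.23 in P0 (adjusted p = 0.336), while the rises were 0.77 ± 0.22 in F1 and 0.81 ± 0.22 in F2 (adjusted p = 0.00580 and 0.00405). Without wild type untreated replicate 1 the adjusted p was 0.121 in F1 and 0.0897 in F2, and without replicate 2 of the treated group it was 0.0754 in F1 and 0.0599 in F2.

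Other cohesin genes showed the wild type rise more often than the fall in libraries labelled damt-1. Of 10 further genes of cohesin, its loader and its release, 2 fell and 0 rose in each of P0, F1 and F2 labelled damt-1, with list medians of -0.14, -0.11 and -0.11. The 2 that fell were scc-1, the mitotic kleisin, by 0.57 ± 0.096, 0.56 ± 0.097 and 0.65 ± 0.099 on the log2 scale (adjusted p = 0.000122, 0.000176 and 3.17e-05), and coh-3, a meiotic kleisin. The log2 difference of coh-3 was -0.88 ± 0.19 in P0, -0.75 ± 0.18 in F1 and -0.998 ± 0.19 in F2 (adjusted p = 0.00148, 0.00630 and 0.000544). Wild type P0 had 7 rises and 1 fall among the 10 genes, F1 had 8 and 2, and F2 had 7 and 1. In wild type F2 scc-1 rose by 0.90 ± 0.096 and coh-3 by 0.78 ± 0.15 (adjusted p = 4.28e-08 and 0.000152), while mau-2, part of the cohesin loader, fell by 0.27 ± 0.068 (adjusted p = 0.00231).

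Of the central region genes, syp-1 and syp-4 changed most in the wild type. SYP-1 spans the space between the axes as a transverse element, and SYP-4 is a coiled-coil protein of the same region. For syp-1 the libraries labelled damt-1 had 31.7 and 39.00 CPM in P0, 35.04 and 38.5 in F1 and 35.5 and 30.04 in F2, against 47.7 and 61.3 CPM in untreated libraries. Wild type levels of syp-1 were 76.8 and 71.9 CPM in P0, 102 and 103 in F1 and 103 and 108 in F2, against 48.5 and 52.9 CPM in untreated libraries. The treated wild type libraries all lay far above those labelled damt-1, and no treated library overlapped its untreated pair. The log2 difference in libraries labelled damt-1 was -0.63 ± 0.12 in P0, -0.57 ± 0.12 in F1 and -0.73 ± 0.13 in F2 (adjusted p = 0.000602, 0.00181 and 0.000168), and the F1 fall was lost without damt-1 untreated replicate 2 (adjusted p = 0.105). The wild type difference was 0.55 ± 0.10 in P0, 1.01 ± 0.096 in F1 and 1.06 ± 0.096 in F2 (adjusted p = 0.000369, 6.06e-09 and 3.03e-09), so F2 was 2.08-fold higher than untreated.

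For syp-4 the libraries labelled damt-1 had 43.96 and 37.1 CPM in P0, 34.5 and 45.3 in F1 and 37.3 and 30.9 in F2, against 68.5 and 50.2 CPM in untreated libraries. Wild type levels of syp-4 were 90.8 and 102 CPM in P0, 116 and 129 in F1 and 127 and 132 in F2, against 59.8 and 59.5 CPM in untreated libraries. The treated libraries did not overlap the untreated ones in either genotype, but damt-1 untreated replicate 1 stood well above replicate 2. The falls in libraries labelled damt-1 were -0.54 ± 0.14 in P0, -0.56 ± 0.14 in F1 and -0.78 ± 0.15 in F2 (adjusted p = 0.00907, 0.00737 and 0.000421). Without untreated replicate 1 the adjusted p was 0.266 in P0 and 0.232 in F1, without P0 replicate 2 it was 0.109 in P0 and without F1 replicate 1 it was 0.153 in F1. The wild type rises were 0.69 ± 0.11 in P0, 1.04 ± 0.11 in F1 and 1.12 ± 0.10 in F2 (adjusted p = 5.59e-05, 1.9e-08 and 4.59e-09). The F2 level was 2.17-fold higher than the untreated one, and the 3 wild type rises held with each library left out.

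The changes of syp-2 and syp-3, which also encode central region proteins, were smaller. For syp-2 the libraries labelled damt-1 had 26.97 and 24.4 CPM in P0, 24.6 and 30.9 in F1 and 29.2 and 28.9 in F2, against 35.6 and 31.4 CPM in untreated libraries. The wild type had 39.3 and 47.7 CPM in P0, 46.8 and 48.02 in F1 and 45.6 and 47.4 in F2, against 35.1 and 35.9 CPM in untreated libraries. No difference of syp-2 in libraries labelled damt-1 passed the test, at -0.38 ± 0.14 in P0, -0.27 ± 0.14 in F1 and -0.20 ± 0.14 in F2 (adjusted p = 0.0788, 0.255 and 0.419). On the wild type side syp-2 rose by 0.42 ± 0.12 in F1 and 0.39 ± 0.12 in F2 (adjusted p = 0.00634 and 0.0112), and P0 at 0.30 ± 0.12 (adjusted p = 0.0960) did not pass, although it did without P0 replicate 1 (adjusted p = 0.0416). The F1 rise was lost without F1 replicate 2 (adjusted p = 0.0614), with DESeq2 (0.0634) and with scaling on low-density transcripts, those under 0.2 counts per nucleotide (0.0552). The F2 rise was lost without untreated replicate 1 (0.0541) or F2 replicate 2 (0.0941), with DESeq2 (0.0843) and with that scaling (0.0661).

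For syp-3 the libraries labelled damt-1 had 17.7 and 21.8 CPM in P0, 20.8 and 18.6 in F1 and 23.9 and 24.3 in F2, against 30.2 and 22.1 CPM in untreated libraries, whose spread reached into the F2 levels. The wild type had 25.1 and 29.00 CPM in P0, 33.7 and 37.1 in F1 and 42.4 and 34.98 in F2, against 27.5 and 26.2 CPM in untreated libraries. The P0 libraries of the wild type enclosed the untreated ones, and the F1 and F2 libraries lay above them. No difference of syp-3 in libraries labelled damt-1 passed the test, at -0.40 ± 0.18 in P0, -0.40 ± 0.18 in F1 and -0.11 ± 0.17 in F2 (adjusted p = 0.152, 0.159 and 0.781). Without damt-1 untreated replicate 2 the P0 difference passed (adjusted p = 0.0468), and without replicate 1 the F2 difference turned to 0.13. Wild type P0 stood at 0.014 ± 0.16 (adjusted p = 0.969), a value that was -0.0077 with library totals as the only scaling, -0.026 with low-density scaling, -0.099 without P0 replicate 2 and -0.023 without untreated replicate 2. In later generations syp-3 rose by 0.40 ± 0.15 in F1 and 0.53 ± 0.15 in F2 (adjusted p = 0.0367 and 0.00672). The F1 rise was lost with any of the 4 libraries left out (adjusted p = 0.0520 to 0.252), with DESeq2 (0.148) and with low-density scaling (0.167), and the F2 rise without F2 replicate 1 (0.115).

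Of 5 further synapsis genes, 3 fell in P0, 4 in F1 and 4 in F2 of the libraries labelled damt-1, and none rose, while 1 rose in P0 and 3 in F1 and F2 of the wild type, and none fell. The paralogs syp-5 and syp-6, whose products are later-found members of the central region, were among them. With antimycin A syp-5 stood at -1.11 ± 0.18 in P0, -0.94 ± 0.17 in F1 and -0.85 ± 0.17 in F2 labelled damt-1 on the log2 scale (adjusted p = 5.58e-05, 0.00038 and 0.000923). Its wild type values were 0.57 ± 0.13 in F1 and 0.44 ± 0.13 in F2 (adjusted p = 0.000736 and 0.00763). For syp-6 the differences were -0.78 ± 0.13 in P0, -0.52 ± 0.12 in F1 and -0.73 ± 0.13 in F2 labelled damt-1, and 0.64 ± 0.10, 0.84 ± 0.097 and 0.80 ± 0.098 in the wild type, with adjusted p of at most 0.00461. The SCF adaptor gene skr-2, whose product is also part of the synaptonemal complex, stood at -0.37 ± 0.077 in damt-1 F2 (adjusted p = 0.00117) and 0.23 ± 0.073 in wild type F2 (adjusted p = 0.0136). The N-terminal acetyltransferase gene cra-1, which is needed for the complex to assemble, was the other to fall in damt-1 F1 and F2, at -0.14 ± 0.037 and -0.12 ± 0.037 (adjusted p = 0.0118 and 0.0289).

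The pairing gene him-8 passed the test in no treated group labelled damt-1, as syp-2 and syp-3 did not, and rose in F1 and F2 of the wild type. HIM-8 is a zinc finger protein that binds the X chromosome pairing centre and is required for X chromosomes to pair and synapse. It had 16.2 and 18.8 CPM in P0, 28.7 and 23.3 in F1 and 24.9 and 23.7 in F2 of these libraries, against 22.4 and 25.3 CPM in untreated ones. The P0 libraries were below the untreated pair, while the F1 and F2 libraries overlapped it. Wild type levels of him-8 were 29.7 and 30.2 CPM in P0, 35.9 and 37.6 in F1 and 39.5 and 37.96 in F2, against 26.8 and 22.7 CPM in untreated libraries, with no overlap. The differences in libraries labelled damt-1 were -0.45 ± 0.16 in P0, 0.12 ± 0.15 in F1 and 0.026 ± 0.16 in F2 on the log2 scale (adjusted p = 0.0748, 0.733 and 0.949), and the F1 difference turned to -0.037 without F1 replicate 1. The F2 difference was -0.012 without F2 replicate 1, -0.057 without untreated replicate 1, and -0.0027 with library totals as the only scaling. On the wild type side him-8 rose by 0.58 ± 0.14 in F1 and 0.65 ± 0.14 in F2 (adjusted p = 0.00148 and 0.000466), calls that held with each library left out, and stood at 0.28 ± 0.15 in P0 (adjusted p = 0.187).

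Of 7 other genes of pairing and chromosome movement, 3 fell in P0, 3 in F1 and 2 in F2 of the libraries labelled damt-1, and 3 rose in P0, 5 in F1 and 5 in F2 of the wild type. The kinase gene plk-2, whose product is recruited to pairing centres, was among the falls in all 3 groups, at -0.44 ± 0.083 in P0, -0.41 ± 0.084 in F1 and -0.76 ± 0.089 in F2 (adjusted p = 0.000428, 0.000958 and 6.7e-07), and rose in the wild type, by 0.37 ± 0.076, 0.69 ± 0.071 and 0.68 ± 0.072 (adjusted p = 0.000796, 2.42e-08 and 3.93e-08). The nuclear envelope gene sun-1, whose product links pairing centres to the movement of chromosomes, showed the same directions, with -0.58 ± 0.12 in damt-1 F2 and 0.54 ± 0.091 in wild type F2 (adjusted p = 0.00105 and 3.04e-05). The others that fell were hal-3 in damt-1 P0 (-0.61 ± 0.18, adjusted p = 0.0254) and pch-2 in damt-1 F1 (-0.43 ± 0.10, adjusted p = 0.00433). In wild type F1 the rise of zim-2, a relative of him-8 that marks the pairing centre of chromosome V, was 1.08 ± 0.18 (adjusted p = 2.52e-05). In this list none rose in treated libraries labelled damt-1 and none fell in treated wild type libraries.

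Between untreated worms of the genotypes no difference was shown at these genes. Of the 9, 0 passed the test between untreated libraries labelled damt-1 and wild type untreated libraries, although 38.2% of all transcripts did in either direction, and 0 passed at an unadjusted p under 0.05 in edgeR or an adjusted p under 0.05 in DESeq2. The log2 differences, damt-1 minus wild type, ran from -0.23 ± 0.25 for rec-8 (approximate 95% interval of 1.96 SE, -0.72 to 0.25) to 0.11 ± 0.11 for syp-1 (-0.11 to 0.33), with a median of -0.042. Both of these changed sign with 1 library left out: rec-8 was at 0.11 without wild type untreated replicate 2, and syp-1 at -0.091 without damt-1 untreated replicate 2. For htp-1 the interval of -0.19 to 0.11 did not reach the differences seen with antimycin A in P0, -0.46 in libraries labelled damt-1 and 0.32 in the wild type.

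Under antimycin A all 9 genes were lower in libraries labelled damt-1 than in the wild type, in each generation. Over all transcripts 20.2% were lower in P0, 26.9% in F1 and 26% in F2. Set beside the chosen 9 genes, these shares are a description. The median log2 difference of the 9 genes was -1.01 in P0, -1.41 in F1 and -1.29 in F2, and both libraries labelled damt-1 were below both wild type ones for 9 genes each time, which 33.2%, 37.7% and 36.6% of all transcripts showed. The central region gene syp-4 had 37.3 and 30.9 CPM in F2 libraries labelled damt-1, against 127 and 132 CPM in wild type F2 libraries, 3.78-fold lower (log2 -1.92 ± 0.12, adjusted p = 6.9e-12). The cohesin gene rec-8 was 3.87-fold lower in F2 (log2 -1.95 ± 0.26, adjusted p = 1.09e-06), and syp-1 3.20-fold lower (log2 -1.68 ± 0.11, adjusted p = 9.15e-12). Smaller differences in F2 were those of him-8 (-0.67 ± 0.14, adjusted p = 0.000414), syp-2 (-0.68 ± 0.13, adjusted p = 0.000128) and syp-3 (-0.68 ± 0.16, adjusted p = 0.00102).

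A few of these calls rested on single libraries. In P0 syp-3 was at -0.46 ± 0.17 (adjusted p = 0.0425) and was lost without wild type P0 replicate 2 (adjusted p = 0.262) or damt-1 P0 replicate 1 (0.288), with DESeq2 (0.141) and with low-density scaling (0.118). In F1 him-8 was at -0.50 ± 0.14 (adjusted p = 0.00470) and was lost without wild type F1 replicate 2 (adjusted p = 0.0541) or damt-1 F1 replicate 2 (0.0965) and with low-density scaling (0.128). That scaling moved the median of all transcripts to 0.14 in P0, 0.26 in F1 and 0.24 in F2 for damt-1 minus wild type, and the medians of the 9 genes were then -0.89, -1.16 and -1.07. It also moved the split of calls over all transcripts, to 3555 higher and 1994 lower in P0, 5357 and 2300.0 in F1 and 5249 and 2307 in F2, where TMM scaling gave 1924 and 2506, 3045 and 3331, and 2883 and 3221. The other calls of damt-1 against wild type held with each library left out, for 9 of 9 genes in F2.

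**Figure D3:**
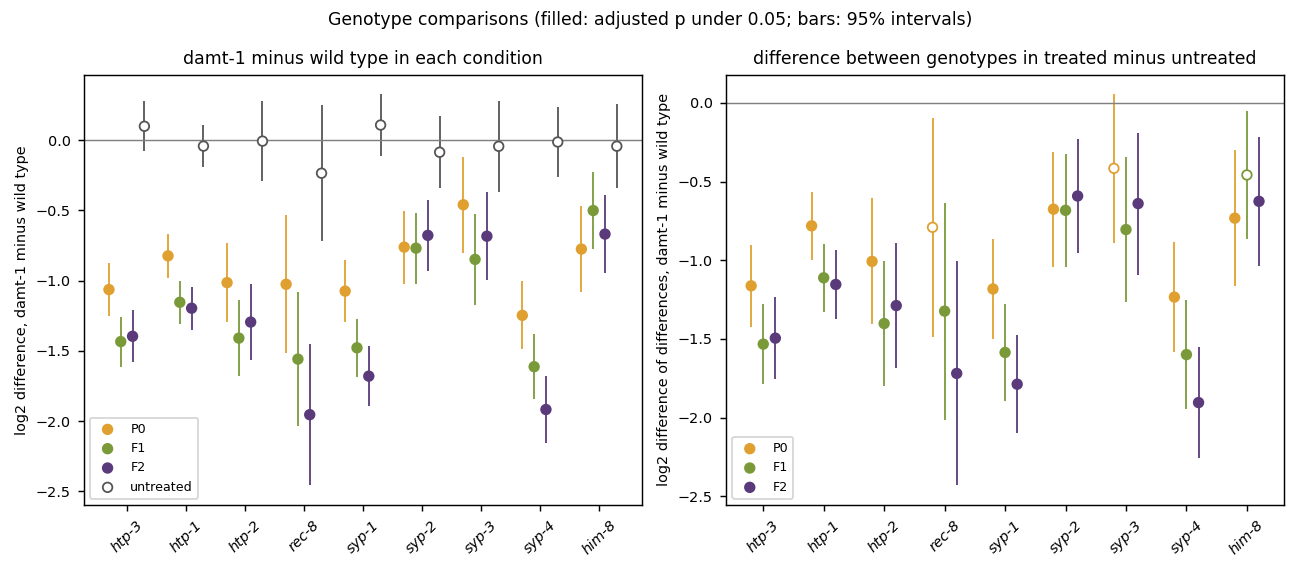
Log2 difference, damt-1 minus wild type, of each gene in P0, F1, F2 and untreated libraries (left), and the difference between the genotypes in treated minus untreated (right), with bars of 1.96 SE as approximate 95% intervals and filled points for an adjusted p under 0.05. Untreated values lie around 0, from -0.23 to 0.11, and all treated values below it, down to -1.95.

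The difference in response was tested as the interaction of genotype and treatment, the change in libraries labelled damt-1 minus the change in the wild type. It was negative and passed the test for 7 genes in P0, 8 in F1 and 9 in F2, and positive for none, against 11.5%, 21.7% and 21.5% of all transcripts with a negative interaction. The medians were -0.79 in P0, -1.32 in F1 and -1.29 in F2. For htp-3 it was -1.16 ± 0.13 in P0, -1.53 ± 0.13 in F1 and -1.49 ± 0.13 in F2 (adjusted p = 3.03e-07, 1.11e-09 and 2.21e-09). The interaction of syp-4 was -1.23 ± 0.18 in P0, -1.60 ± 0.18 in F1 and -1.90 ± 0.18 in F2 (adjusted p = 1.06e-05, 9.35e-08 and 7.16e-09). These calls of htp-3 and syp-4, and those of htp-1, htp-2 and syp-1, held with each library left out. The values that did not pass were those of syp-3 and rec-8 in P0, at -0.42 ± 0.24 and -0.79 ± 0.35 (adjusted p = 0.248 and 0.121), and of him-8 in F1, at -0.46 ± 0.21 (adjusted p = 0.0840).

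For syp-2, syp-3 and him-8 the interaction depended on single libraries. For syp-2, at -0.68 ± 0.19 in P0 and -0.59 ± 0.18 in F2 (adjusted p = 0.00989 and 0.0127), it was lost without damt-1 untreated replicate 1 (adjusted p = 0.0587 in P0 and 0.0666 in F2), in P0 without wild type P0 replicate 2 (0.0760), and with DESeq2 (0.0705 and 0.0763). For syp-3, at -0.80 ± 0.24 in F1 and -0.64 ± 0.23 in F2 (adjusted p = 0.00854 and 0.0299), it was lost in F1 without damt-1 untreated replicate 1 (adjusted p = 0.0917). In F2 syp-3 was lost without that library (0.229), damt-1 F2 replicate 1 (0.0662) or 2 (0.0544), wild type F2 replicate 1 (0.140) or wild type untreated replicate 2 (0.0772), with DESeq2 (0.107) and with low-density scaling (0.0770). For him-8, at -0.73 ± 0.22 in P0 and -0.63 ± 0.21 in F2 (adjusted p = 0.0169 and 0.0197), the P0 call was lost without damt-1 P0 replicate 1 (adjusted p = 0.0844), damt-1 untreated replicate 2 (0.0849) or wild type untreated replicate 2 (0.0806) and with DESeq2 (0.0993). Its F2 call was lost without damt-1 F2 replicate 2 (0.0520), wild type F2 replicate 1 (0.0539), or replicate 2 of either untreated group (0.0963 for damt-1 and 0.0918 for wild type), with DESeq2 (0.102) and with low-density scaling (0.0648). Conversely, rec-8 in P0 passed without wild type untreated replicate 2 (adjusted p = 0.0396) and him-8 in F1 without damt-1 F1 replicate 1 (0.0433).

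Between generations, some of the genes were higher in wild type F1 and F2 than in wild type P0, and in libraries labelled damt-1 no difference was shown. Wild type htp-1, htp-3, syp-1 and syp-4 rose in F1 relative to P0, 4 of the 9 genes, and these and syp-3 rose in F2, 5 of the 9, while 12.2% and 12.1% of all transcripts rose. The largest of these was syp-3 in F2, at 0.51 ± 0.15 (adjusted p = 0.0172), followed by syp-1 in F2, at 0.51 ± 0.089 (adjusted p = 0.000163). DESeq2 called only syp-1 in F1, and syp-1 and syp-4 in F2. Under edgeR the rise of syp-1 held in both generations with each library left out, as did that of htp-3 in F1 and syp-4 in F2. The F1 rises of htp-1 and syp-4 were lost without F1 replicate 2 (adjusted p = 0.106 and 0.186) or P0 replicate 1 (0.112 and 0.136). In F2 htp-3 was lost with any of the 4 libraries left out (adjusted p = 0.0634 to 0.173), htp-1 without F2 replicate 2 (0.0797) or P0 replicate 1 (0.0641), and syp-3 without F2 replicate 1 (0.213) or P0 replicate 1 (0.149). Without P0 replicate 1, htp-2 also passed in F1 and F2 (adjusted p = 0.0338 and 0.0425), while syp-2 turned to -0.011 in F1 and -0.034 in F2. Among libraries labelled damt-1, 0 of the 9 genes passed the test between F1 or F2 and P0 in edgeR or in DESeq2, and 0% of all transcripts did in edgeR. At an unadjusted p under 0.05 only him-8 did, higher in F1 by 0.57 ± 0.16 and in F2 by 0.48 ± 0.16 (adjusted p = 0.998 and 0.894).

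Ordered by group mean, the levels of 8 of the genes ran from the wild type F1 and F2 groups at the top, through wild type P0 and the 2 untreated groups, to the 3 treated groups labelled damt-1. Neighbouring groups that differed in htp-3 were wild type F2 and P0, wild type P0 and damt-1 untreated, and damt-1 P0 and wild type untreated. In htp-1 the steps that passed the test were wild type F1 against P0, wild type P0 against untreated and damt-1 P0 against untreated, and in syp-4 they lay between the same groups. In syp-1 they were wild type F1 against P0, wild type P0 against damt-1 untreated, and damt-1 F1 against wild type untreated. In htp-2 wild type P0 differed from damt-1 untreated and damt-1 P0 from wild type untreated, and in syp-2, syp-3, rec-8 and him-8 no step between neighbouring groups passed the test. In him-8 damt-1 F1 stood just above both untreated groups and F2 between them, with damt-1 P0 at the bottom.

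The summed germ line markers moved with these genes. The list held 10 tested genes, among them the P granule helicase genes glh-1 and glh-4, the translational repressor gene gld-1 and the germ line Notch receptor gene glp-1. Of the 10, 7 fell in each of P0, F1 and F2 labelled damt-1 and 9 rose in each of the 3 treated wild type groups. The 10 genes summed to 737 to 752 CPM in P0, 736 to 751 in F1 and 694 to 747 in F2 of the libraries labelled damt-1, against 958 to 966 CPM in untreated libraries. Wild type sums were 1476 to 1534 CPM in P0, 1778 to 1802 in F1 and 1742 to 1798 in F2, against 1090.0 to 1123 CPM in untreated libraries. The sum of the 9 axis and synapsis genes was between 35.3% and 42.7% of the germ line sum in all 16 libraries. It was 36.9% to 37.1% in damt-1 P0, 37.6% to 37.7% in F1 and 37.6% to 37.7% in F2, against 40.1% to 42.7% in damt-1 untreated libraries. The wild type ratio was 35.6% to 35.8% in P0, 36.9% to 38.02% in F1 and 37.999% to 38.8% in F2, against 35.3% to 36.5% in untreated libraries. The gene glh-1 made up 36.2% of the germ line sum.

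**Figure D4:**
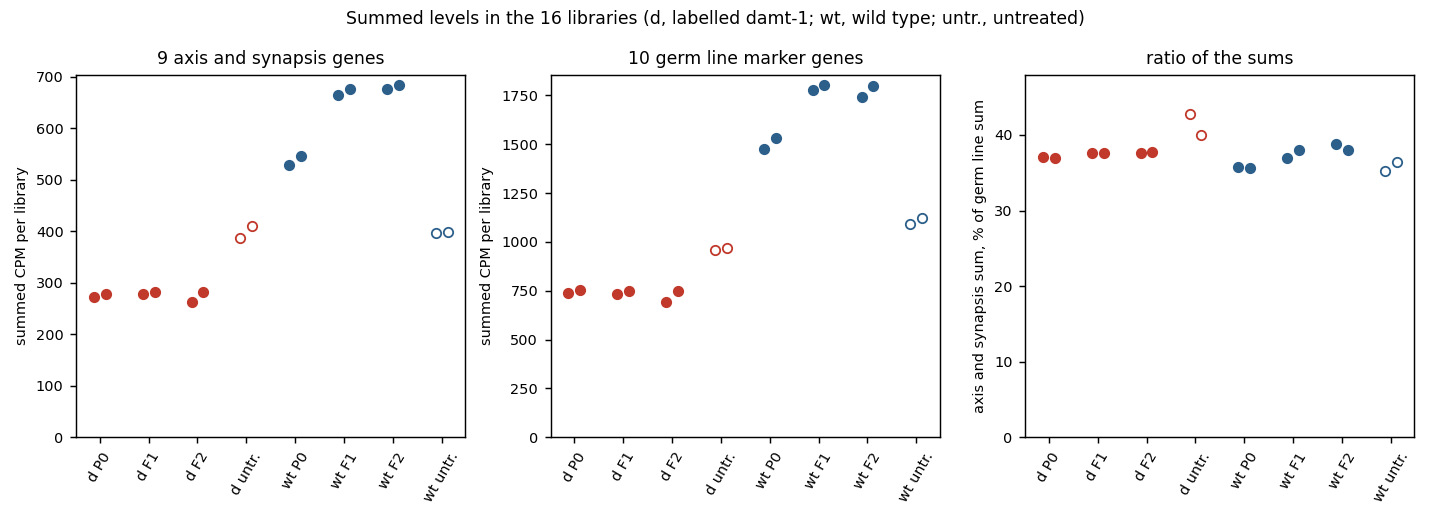
Summed CPM per library of the 9 axis and synapsis genes (left) and of 10 germ line marker genes (middle), and the first as a percentage of the second (right), with untreated libraries as open points. Both sums are lowest in treated libraries labelled damt-1 and highest in wild type F1 and F2, while the ratio stays between 35.3% and 42.7%.

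Scaled to the germ line sum in place of all transcripts, few of the 9 genes changed with antimycin A. In libraries labelled damt-1, htp-3 was lower in P0 and F1, 1 gene each, and htp-3, syp-1 and syp-4 in F2, 3 genes, relative to that sum, as were 1.07%, 1.18% and 1.05% of all transcripts, and him-8 alone was higher, in F1 and F2, as were 53.3% and 57% of all transcripts. Both calls of him-8 were lost with some of the single libraries left out. Relative to the germ line sum in the wild type, syp-4 was higher in P0, 1 gene, and syp-1 and syp-4 in F1 and F2, 2 genes each, as were 3.82%, 6.74% and 6.88% of all transcripts, and 1 gene was lower each time, syp-3 in P0 and syp-2 in F1 and F2, as were 55.8%, 63.8% and 64%. The calls of syp-2 were lost with any single library of the groups compared left out, and those of syp-3 and syp-4 in P0 with some. Between untreated groups htp-3 and syp-1 were higher in libraries labelled damt-1, 2 genes, as were 37.1% of all transcripts. Of the calls relative to the germ line sum, 40 in all comparisons, 28 were lost with at least 1 library left out and 14 with glh-1 taken out of the list, both tried after the data were seen. The test took the germ line sum as known, without its own error. The gene htp-3 fell relative to the germ line sum in damt-1 F2, by 0.40 ± 0.11 on the log2 scale (adjusted p = 0.00174), a call that held under both changes. Its falls in P0, at -0.35 ± 0.10 (adjusted p = 0.00455), and in F1, at -0.40 ± 0.11 (adjusted p = 0.00199), were lost, in P0 without damt-1 untreated replicate 1 (adjusted p = 0.0782) and in F1 without F1 replicate 2 (0.0691). In wild type F1 the rises of syp-1 and syp-4 were lost without glh-1 in the list (adjusted p = 0.160 and 0.106), and so were the falls in damt-1 F2 of syp-1 without untreated replicate 2 (0.503) and of syp-4 without untreated replicate 1 (0.496). In wild type F2 syp-1 and syp-4 rose relative to the germ line sum, by 0.38 ± 0.10 and 0.44 ± 0.10 (adjusted p = 0.00135 and 0.000315), and both calls held under both changes.

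Against the germ line sum the genes parted in F1 and F2. In F1 libraries labelled damt-1 against wild type F1, him-8 was higher by 0.77 ± 0.15, syp-2 by 0.50 ± 0.13 and syp-3 by 0.42 ± 0.17 on the log2 scale. There syp-4 was lower by 0.35 ± 0.12 (adjusted p in turn = 2.43e-05, 0.00118, 0.0295 and 0.00837). Of all transcripts 76.5% were higher and 3.87% lower in F1. The F1 calls of syp-2, syp-3 and syp-4 were each lost with some single library left out. Relative to the germ line sum, in F2 libraries labelled damt-1 against wild type F2, syp-4 was lower by 0.63 ± 0.12, while syp-2 was higher by 0.61 ± 0.13, syp-3 by 0.61 ± 0.17 and him-8 by 0.62 ± 0.15 on the log2 scale (adjusted p = 2.36e-05, 0.000108, 0.00135 and 0.000394). These 4 calls held under both changes, and 3.38% of all transcripts were lower and 77.1% higher in this comparison. In all, 3 of the 9 genes were lower there, the others being syp-1, which was lost without glh-1 (adjusted p = 0.0551), and rec-8, and 3 were higher. The rec-8 call was lost without glh-1 (adjusted p = 0.0883), wild type F2 replicate 2 (0.113) or damt-1 F2 replicate 1 (0.211). The interaction relative to the germ line sum in F2 was -0.70 ± 0.16 for syp-1 and -0.81 ± 0.17 for syp-4 (adjusted p = 0.000316 and 8.64e-05), and both held likewise. As a share of the summed CPM per kilobase of the 9 genes, syp-4 made up 9.10% in damt-1 F2 and 15.2% in wild type F2, against 11.4% and 11.4% in the untreated groups of these genotypes. The share of him-8 was 11.3% in damt-1 F1 and 10.6% in damt-1 F2, against 7.55% in damt-1 untreated libraries, and that of htp-1 stayed between 22.6% and 24.7% in all 8 groups.

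The recombination genes act on the synapsed or synapsing chromosomes. Of 26 tested, 5 fell and 1 rose in P0, 7 fell in F1 and 5 fell in F2 of the libraries labelled damt-1, and 11 rose in P0, 22 in F1 and 22 in F2 of the wild type with none falling. The list medians were -0.34, -0.32 and -0.26 in libraries labelled damt-1, and 0.40, 0.63 and 0.64 in the wild type. The chromatin factor gene xnd-1, which governs where breaks form, fell by 0.54 ± 0.12 in damt-1 P0 (adjusted p = 0.00168) and rose by 0.97 ± 0.083 in wild type F2 (adjusted p = 1.15e-09). The gene of the nuclease MRE-11, which processes breaks, fell by 0.39 ± 0.10 in damt-1 F2 (adjusted p = 0.00968). The helicase gene him-6 and rmh-1, whose products work together on recombination intermediates, rose in wild type F2 by 0.99 ± 0.073 and 1.42 ± 0.16 (adjusted p = 8.14e-11 and 1.06e-07). The nuclease gene mus-81 was the 1 that rose in damt-1 P0, by 0.42 ± 0.11 (adjusted p = 0.0109).

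Between untreated groups, where none of the 9 genes passed the test, the calls in these other lists were 6 higher of 26 recombination genes, 4 higher and 2 lower of 10 cohesin genes, 1 higher and 1 lower of 7 pairing genes and 2 higher of 5 further synapsis genes. In libraries labelled damt-1 mre-11 was higher by 0.89 ± 0.11, brc-1 by 1.25 ± 0.19 and brd-1 by 0.93 ± 0.14, the genes of the BRCA1 and BARD1 orthologs (adjusted p = 3.01e-07, 6.9e-06 and 1.19e-05). The ATPase gene pch-2, whose product remodels HORMA domain proteins, was higher by 0.97 ± 0.11 (adjusted p = 8.79e-08), and scc-1 by 0.79 ± 0.099 (adjusted p = 5.08e-07). Lower were lab-1, which protects sister cohesion, at -1.20 ± 0.28 (adjusted p = 0.00141), the meiotic kinase gene chk-2 at -0.95 ± 0.26 (adjusted p = 0.00477) and mau-2 at -0.68 ± 0.074 (adjusted p = 6.39e-08). Of all transcripts 17.9% were higher and 20.3% lower in this comparison, 38.2% in all, against which these counts are to be read.

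Markers of other germ cell stages and of larval stage also moved, in other patterns, and their part in these results was not tested. The 16 oocyte and eggshell genes summed to 425 to 469 CPM in P0, 417 to 447 in F1 and 409.6 to 446 in F2 of libraries labelled damt-1, against 291 to 312 CPM untreated, with 8, 8 and 7 genes risen and none fallen. Wild type sums were 989 to 1038 CPM in P0, 1447 to 1459 in F1 and 1503 to 1533 in F2, against 668 to 739 CPM untreated, with 10, 14 and 14 risen and 0, 1 and 1 fallen. The oocyte calls in libraries labelled damt-1 were thus rises, where the axis and synapsis calls were falls. The 53 sperm genes summed to 1339.7 to 1363 CPM in P0, 1349 to 1368 in F1 and 1370.5 to 1374 in F2 labelled damt-1, against 1254 to 1260.2 CPM untreated, and 3, 5 and 3 of 52 tested rose and 0, 1 and 1 fell. The wild type sperm sum was 2148 to 2158 CPM in P0, 2519 to 2566 in F1 and 2538 to 2554 in F2, against 2007 to 2049.8 CPM untreated, with 5, 18 and 15 of 53 risen and none fallen. The sperm gene spe-9 was listed in none of the damt-1 tables, which means 10 or fewer counts over the 4 libraries of each, and it enters these sums as 0. Between untreated groups, 13 of 16 oocyte genes and 38 of 52 sperm genes were lower in libraries labelled damt-1, and none was higher.

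The 9 DNA replication genes fell in libraries labelled damt-1, 8 in P0, 8 in F1 and 7 in F2 with 1 rise in F2, and 8, 9 and 9 rose in the wild type. Their sum was 2059 to 2130.4 CPM in P0, 2075 to 2095 in F1 and 2097 to 2100.2 in F2 of libraries labelled damt-1, against 2439 to 2451 CPM untreated, and 1561 to 1563, 1764 to 1768 and 1747 to 1772 CPM in the wild type, against 1167 to 1178 CPM untreated. All 9 were higher in untreated libraries labelled damt-1 than in wild type untreated ones, with a median log2 difference of 1.36. The 6 furrow collagen genes, which are transcribed early in each larval molt cycle, had 4, 3 and 4 falls in P0, F1 and F2 labelled damt-1 and 5, 6 and 6 rises in the wild type. They summed to 1361 to 1442 CPM in P0, 1431 to 1464 in F1 and 1401 to 1483 in F2 labelled damt-1, against 1601 to 1662 CPM untreated. The wild type sum was 613 to 626 CPM in P0, 1008 to 1015 in F1 and 1017 to 1039 in F2, against 362 to 366 CPM untreated. Of 5 adult cuticle collagen genes, 3 rose in each treated group labelled damt-1, with 1, 1 and 0 falls, and 2, 1 and 1 rose and 1, 4 and 4 fell in wild type P0, F1 and F2. The adult cuticle collagen gene col-62 had 0 counts in damt-1 untreated libraries.

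**Figure D5:**
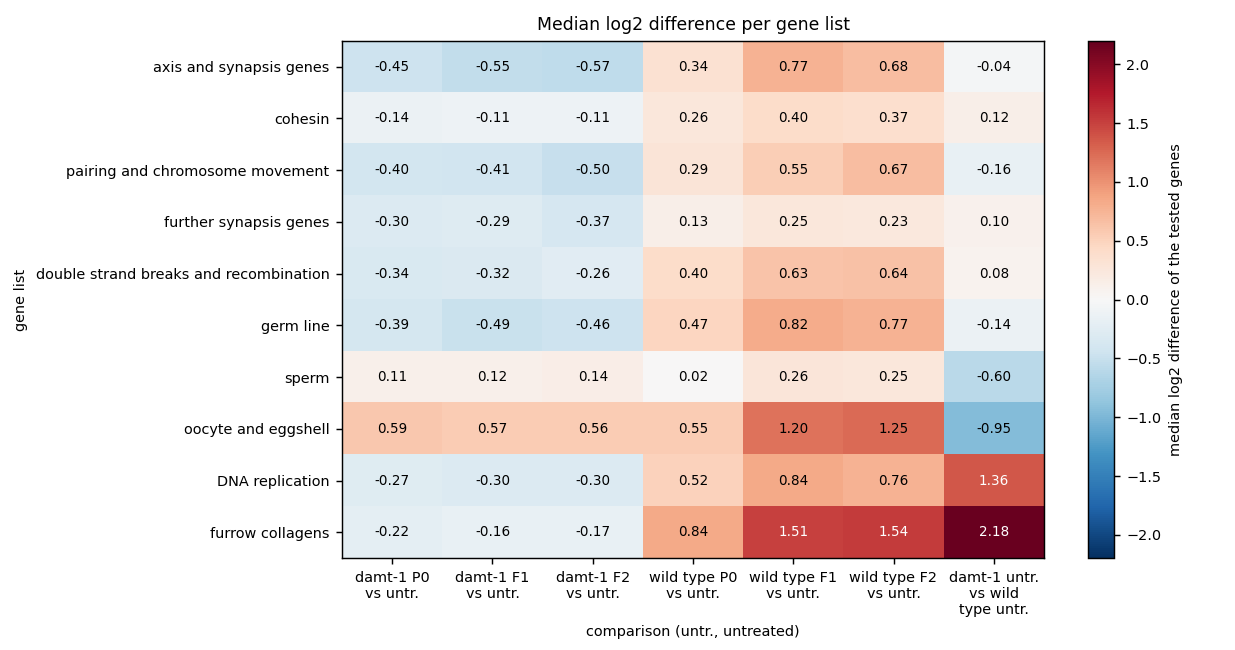
Median log2 difference of each gene list (rows) in 7 comparisons (columns), in red where higher and blue where lower. The axis and synapsis genes share their signs in the treated comparisons with the cohesin, pairing, synapsis, recombination, germ line, DNA replication and furrow collagen lists, while the oocyte list is at 0.59 in damt-1 P0, where the axis and synapsis genes are at -0.45.

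Markers of body tissues also differed, and their part in these results was not tested either. Markers of body wall muscle summed to 4543 to 4931 CPM in damt-1 F2 and 4069 to 4122 CPM in wild type F2, against 4539 to 4656 and 4028 to 4284 CPM in the untreated groups of these genotypes, and 0 of 4 passed the test in any treated group labelled damt-1 and 0, 1 and 1 fell in wild type P0, F1 and F2. The 5 intestine markers summed to 1732 to 1841 CPM in damt-1 F2 and 1567 to 1582 CPM in wild type F2, against 1724 to 1760.4 and 1636 to 1738 CPM in the untreated groups of these genotypes, and 0 passed in treated groups labelled damt-1, and 1 rose and 1, 3 and 2 fell in wild type P0, F1 and F2. The 3 epidermis markers summed to 833 to 918 CPM in damt-1 F2 and 757 to 770.4 in wild type F2, against 841 to 883 and 804 to 870.5 CPM in the untreated groups, and 0 passed in treated groups labelled damt-1 and 0, 1 and 1 fell in the wild type. The 5 neuron markers summed to 1065 to 1095 CPM in damt-1 F2 and 915 to 916 in wild type F2, against 1047 to 1089.5 and 1138 to 1165 CPM in the untreated groups, and 1 rose in damt-1 P0 and 1, 3 and 4 fell in wild type P0, F1 and F2. The 4 pharynx markers summed to 322 to 335 CPM in damt-1 F2 and 566 to 575 in wild type F2, against 211 to 226 and 307 to 353 CPM in the untreated groups, and 2 rose in each treated group labelled damt-1, and 2, 3 and 3 rose and 0, 0 and 1 fell in the wild type.

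Across the 8 group means, each gene was compared with the mean of the other 8 on the log2 scale. Pearson's r was 0.996 for syp-1, 0.994 for htp-2, 0.993 for htp-1 and syp-4, 0.985 for htp-3, 0.981 for syp-2, 0.979 for rec-8, 0.920 for syp-3 and 0.853 for him-8. The mean pattern of the 9 genes was common in these data, since 1021 of 9093 other transcripts with a mean of at least 10 CPM had an r over 0.9 with it. The 8 most alike over the 8 groups were ZK616.5 (r = 0.999), asah-1 (0.996), T28A8.6 (0.996), rga-3 (0.996), glh-4 (0.995), H34I24.2 (0.995), fubl-4 (0.995) and F34D10.4 (0.995). All these values share their libraries and are a description.

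The authors' deposited table of DESeq2 results gave the same signs for all 9 genes in all 6 treated against untreated comparisons. In the authors' deposited table an adjusted p under 0.05 was reached in damt-1 P0 by htp-3 and syp-1, in F1 by htp-1 and htp-3, and in F2 by htp-1, htp-3, syp-1 and syp-4. For the wild type the authors' deposited table had htp-2, htp-3, syp-1 and syp-4 under 0.05 in P0, these and htp-1 in F1, and these 5 and him-8 in F2. The largest change in the authors' deposited table was that of syp-4 in wild type F2, at 1.09 on the log2 scale (adjusted p = 1.05e-17).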

How the data were processed

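RNA was sequenced from 8 groups of whole L4 worms, 2 libraries each. Reads were trimmed with Trimmomatic 0.35, aligned with HISAT2 2.0.5, sorted with SAMtools 1.3.1 and counted with HTSeq 0.9.1 against ce10, and compared with DESeq2 1.20.0 in R 3.5.0, as far as the submitters' processing notes name tools, without roles or settings. The deposited counts are whole reads per transcript in 6 tables, each a treated and an untreated group of 1 genotype. Per the file headers, the authors' own log2 fold changes and adjusted p-values stand in separate comparison tables deposited with them. Transcripts with 10 or fewer counts over a table's 4 libraries are not listed there. The untreated columns were identical across tables (0 of 106180 values differed), and 24 further columns of per-sample values were not used. Count columns were matched to groups by their short codes. Of 14396 transcripts, 12654 were in all 6 tables and 12592 passed a minimum count of 10. The 9 axis and synapsis genes all passed. Counts per nucleotide of transcript had a 99th percentile of 1.35 and a highest value of 3.31, and these genes stood at 0.00771 to 0.416.

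Here edgeR 4.0.16 (TMM, factors 0.978 to 1.02, robust quasi-likelihood test, limma 3.58.1, R 4.3.3) was fitted to all libraries with 1 mean per group, with Benjamini-Hochberg adjustment over all transcripts tested. The biological coefficient of variation, as edgeR names the spread between libraries of a group beyond counting error, was 2.18%. Since the libraries of a group may be technical ones, this value need not measure variation between worm cultures. DESeq2 1.42.0, other scalings, other filters, a replicate block, single groups and single libraries left out were alternatives. Counts were simulated over 12397 transcripts with wild type P0 set at the wild type untreated means, and rises were put into a small share of them. Of these rises, 17 of 50 of 1.25-fold, 29 of 49 of 1.5-fold, 39 of 50 of 2-fold and 47 of 50 of 4-fold were called, and 6 of 12198 unchanged transcripts. In the real comparison far more transcripts were called, in both directions, and recovery under such a setting was not tested. Same-numbered libraries did not deviate together (r from -0.058 to 0.036 over 28 pairs of groups). Spliced and coding lengths and overlaps came from annotations of a later build than ce10, so no coordinates are given, and 98.1% of transcripts had a length. The genes, the lists (cohesin, pairing, further synapsis, recombination, germ line, sperm, oocyte and eggshell, DNA replication, collagens and body tissues) and the tests were chosen with earlier results of these data known. From the other meiotic lists up to 3 called genes per direction, list and comparison were named by smallest adjusted p, with exceptions where a gene was followed across comparisons, and the 8 transcripts most like the mean pattern over the group means of log2 CPM. The pairing gene zim-2 was named outside this rule. Figures were drawn with matplotlib 3.10.9.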

Additional observations from a re-analysis of the deposited data

Results flagged for a closer look

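The change with antimycin A differed between libraries labelled damt-1 and the wild type in 24 of the 27 values tested by the interaction term (edgeR, adjusted p under 0.05), all of them negative, the change in libraries labelled damt-1 minus that in the wild type. In P0 the log2 values were -0.78 for htp-1, -1.01 for htp-2, -1.16 for htp-3, -1.18 for syp-1, -0.68 for syp-2, -1.23 for syp-4 and -0.73 for him-8. In F1 they were -1.11 for htp-1, -1.40 for htp-2, -1.53 for htp-3, -1.59 for syp-1, -0.68 for syp-2, -0.80 for syp-3, -1.60 for syp-4 and -1.32 for rec-8. In F2 they were -1.15 for htp-1, -1.29 for htp-2, -1.49 for htp-3, -1.79 for syp-1, -0.59 for syp-2, -0.64 for syp-3, -1.90 for syp-4, -1.72 for rec-8 and -0.63 for him-8. The 3 generations share the untreated libraries of each genotype, so their values are not independent. Groups of 2 libraries are too small for a check of single values that stand apart.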

How the results depend on the processing

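Of 132 values of the 9 genes followed one by one under the alternatives, 97 passed the test in the main fit. The untreated comparison of htp-2, syp-2, syp-3, syp-4 and him-8, and damt-1 F1 and F2 against P0 except for him-8, are not among them and had not passed. Part of the calls were lost with a single library left out. Over the other alternatives 30 values lost the call, 18 of them under DESeq2, and 11 gained one. A replicate block and no count filter changed no call. The values that changed sign had not passed the test. With single libraries left out, him-8 ran from -0.037 to 0.27 in damt-1 F1 and from -0.057 to 0.12 in damt-1 F2 against untreated, with -0.0027 under library totals only. Likewise rec-8 ran from -0.50 to 0.11, syp-1 from -0.091 to 0.27, htp-3 from -0.053 to 0.25 and htp-1 from -0.093 to 0.011 between untreated groups, with 0.057 for htp-1 under low-density scaling. The range was, for syp-2, from -0.011 to 0.27 in wild type F1 and from -0.034 to 0.25 in F2 against P0, and, for syp-3, from -0.33 to 0.13 in damt-1 F2 against untreated. In wild type P0 against untreated syp-3 ran from -0.099 to 0.11, with -0.0077 under library totals only and -0.026 under low-density scaling.

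Of the counts of genes called, 243 alternatives were within 1.5 times and 24 were not. These counts ignored direction. Scaled to the germ line list, damt-1 F2 against untreated and against wild type F2 counted as within 1.5 times, although genes were called both higher and lower there. In wild type F1 against P0 low-density scaling called 2 genes and DESeq2 1, and in F2 against P0 they called 3 and 2. With single libraries left out, damt-1 F1 against untreated had 3 to 4 genes, wild type F1 against P0 2 to 4 and F2 against P0 3 to 4. Scaled to the germ line list, a choice made after the data were seen, counts in either direction were 1 in damt-1 P0 and 2 in F1 against untreated, 2 in wild type P0, 3 in F1 and 3 in F2 against untreated, and 2 between untreated groups. Between damt-1 and wild type, syp-3 was called higher in P0 (1 gene), and syp-2, syp-3 and him-8 higher and syp-4 lower in F1 (4 genes). Of all transcripts 74.7% were higher and 2.9% lower there in P0, and 76.5% and 3.87% in F1. For the interactions 3, 4 and 4 were called in P0, F1 and F2: htp-3, syp-1 and syp-4 lower each time, him-8 higher in F1 and syp-2 higher in F2. Of all transcripts 64.7%, 67.3% and 68.5% were higher and 2.08%, 3.8% and 3.72% lower. In wild type F1 and F2 against P0 the counts were 0 and 1, syp-1 higher, as were 4.37% and 4.63% of all transcripts. Low-density scaling moved the median of all transcripts in wild type F1 against untreated to -0.11 and its calls to 2406 higher and 3977 lower, where TMM gave 3290.0 and 2600.0. The cause of these shifts was not tested.

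Depth limited rec-8 most, at 4.79 to 21.3 CPM. With 2 libraries a group, a missed threshold does not show that a gene was unchanged.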
